A study of Mus musculus with 6 samples.

Results

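The TGF-β superfamily genes described here are 49 genes of 20323 in the deposited table, taken by gene symbol: ligands, the proteins that keep ligands latent or process them, receptors, SMADs, antagonists and targets. All 49 had a single row. They were measured by RNA sequencing in a kidney fibroblast line that the labels name RFB. One group of 3 libraries carried TGF-β as its treatment (titles NC1 to NC3, called the TGF-β group here), and the other group of 3 carried TGF-β together with CXCL10 (called the CXCL10 group). The titles of the latter give a volume of 5 µl, without a concentration. Thus all 6 libraries came from cells given TGF-β, the pathway's main ligand, and none from untreated cells. The comparison therefore concerns TGF-β with and without CXCL10, a chemokine. Neither the order of the treatments nor the time of exposure is stated in the labels. The series text names a knockdown of SUV39H1, but no sample label here gives one. The labels name a single line and do not say that replicates were separate cultures, so the p-values below measure a spread between libraries that may be technical.

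TGF-β is secreted in a latent complex, tied to the matrix by latent TGF-β binding proteins, and must be released before it acts. Dimeric ligands bring type II and type I serine/threonine kinase receptors together, and the type I receptor phosphorylates receptor-regulated SMADs: SMAD2 and SMAD3 for TGF-β and activin, and SMAD1, SMAD5 and SMAD9 for bone morphogenetic proteins (BMPs). These join SMAD4 in the nucleus, and inhibitory SMADs, ubiquitin ligases, corepressors and secreted ligand traps restrain the signal. In kidney fibroblasts the pathway is best known for driving matrix production and the myofibroblast state.

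The labels give mouse as the organism, whereas all 20323 rows are human Ensembl genes, so symbols are the table's own and no sequence or position is given. Library totals ranged from 12838106 to 15587409 counts, and a count of 0 allows up to 3 counts, equal to 0.187 to 0.237 CPM (counts scaled to a common library size), for counting error only. The fibroblast markers were abundant, with a summed level of 54806 to 62249.5 CPM in the TGF-β group and 52481 to 56807 in the CXCL10 group, and 10 of 10 were tested. Of 9 tubular epithelial markers 3 were tested, 3 were at 0 in all libraries (PAX2, LRP2 and UMOD), and the sum was 21.2 to 22.7 CPM without and 19.4 to 21.4 with CXCL10. The simple epithelial keratins summed to 3127 to 3652 and 3384 to 3671 CPM, the pericyte and smooth muscle markers to 1394 to 1785 and 1001 to 1435, the endothelial markers to 50.4 to 51.4 and 47.7 to 51.6, and the leukocyte markers to 42.5 to 47.9 and 42.1 to 48.3. Among these markers, 4 of the 7 pericyte and smooth muscle genes were lower with CXCL10 and 2 of the 4 keratins were higher. Of the 10 fibroblast genes 2 were higher and 3 lower, and the epithelial cadherin gene CDH1 was lower (2.41 against 0.703 CPM). The paired test defined in the next paragraph gave these calls, and it called 9.71% of all genes higher and 8.04% lower. The unpaired test called none of the markers. KRT18, with pair 1 going the other way, was lost in the paired DESeq2 fit (adjusted p 0.309). The paired fit on FPKM lost KRT18, KRT19, CSPG4, NOTCH3, COL1A1, DCN and CDH1. The part of the markers in the results was not tested, and in bulk RNA fewer cells of a type and less RNA per cell cannot be told apart. Replicate 1 stood apart from replicates 2 and 3 in both groups, and results are given with and without it.

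The principal test, edgeR without pairing of the libraries, called 0 genes. In a test paired by replicate number, 12 of the genes rose with CXCL10, by 1.12- to 2.40-fold. They included the ligand genes TGFB1, INHBA and BMP6 and the receptor genes TGFBR2, BMPR2, ENG and RGMB. The others were LTBP2, the ubiquitin ligase genes SMURF1 and SMURF2, and the ligand traps GREM1 and FST. Over 12 versions of the paired test SMURF2 was called in 12, and ENG and SMURF1 in 6 each. SMAD3, TGIF1 and the decoy receptor gene BAMBI fell. These calls come from edgeR's quasi-likelihood test paired by replicate number, with Benjamini-Hochberg adjustment over all genes tested and a threshold of 0.05. The pairing by number was taken from a check of the data, not from the labels. That check rests largely on replicate 1 and does not settle how replicates 2 and 3 pair. Of the 49 genes, 44 passed the filter on low counts, and of these 12 were called higher and 3 lower, or 27.3% and 6.82%. Over all 11970 genes tested the same fit called 9.71% higher and 8.04% lower. The share of higher calls was thus above the background and that of lower calls was near it. The genes were chosen with earlier results of these data known, so this is a description and not a test of the family. Without the pairing, 0 of the 44 genes were called by edgeR, 0 by limma-voom and 3 by DESeq2 (1 higher, 2 lower). Unpaired edgeR called 0% of all genes, its smallest adjusted p over all genes was 0.161, and 17 of the 44 genes had an unadjusted p under 0.05. The calls stated below as rose or fell therefore rest on the pairing. Beside the 27.3% and 6.82% stand 10 genes called higher and 6 lower (22.7% and 13.6%) when library totals replaced TMM scaling in the paired test, which then called 7.33% of all genes higher and 11.4% lower. In that test BMPR1A, TGFBI and ID3 were added to the lower calls, and ENG (adjusted p 0.0689) and SMURF1 (adjusted p 0.0998) were lost.

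The 15 called genes had the same sign in 3 of 3 pairs, as had 31 of the 44 tested genes, and the groups did not overlap in 10 of the 15. These genes were picked by the paired test on the same libraries, so their like signs and separate groups give no further support. The share of all genes with the same sign in each pair was not counted. Over the 44 genes, the CXCL10 libraries all lay above the TGF-β libraries in 10 and all below in 6 (22.7% and 13.6%), against 11.1% and 11.2% of all genes. The median log2 change was -0.03 for the 44 genes and -0.01 for all genes, while the median absolute log2 change was 0.21 against 0.16. A change of at least 1 on the log2 scale was reached by 4 of the 15 called genes, and 28 genes moved by less than 0.3.

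TGF-β replicate 1 was the TGF-β library nearest to the CXCL10 libraries in 15 of the 15 called genes, as in 1988 of the 2124 genes called over the whole table (93.6%). In 14 of the 15 the change was smallest in pair 1, FST being the exception. Leaving out TGF-β replicate 1 alone, without pairing, gave 13 calls higher and 3 lower among the genes, where all genes had 10.7% and 8.61%. With any of the other 5 libraries left out, the unpaired test called 0 of the genes. Without both libraries of replicate 1 the paired test called 13 higher and 4 lower (12.7% and 10.9% of all genes), adding TGFB2 to the first and SMAD9 to the second. The paired DESeq2 test, which called 9.7% of all genes, called 12 of the 15, leaving out LTBP2, ENG and SMURF1. On log2(FPKM + 1), where FPKM is the authors' value scaled by length and depth, the paired limma-trend test called 5.76% of all genes and 10 of the 15. It left out LTBP2, BMPR2, ENG, SMAD3 and SMURF1. Unpaired DESeq2 called 3.39% of all genes, and its 3 calls here were SMURF2 (adjusted p 0.0193), BAMBI (0.0168) and TGIF1 (0.0498). In the authors' deposited table, where 1.33% of rows with a count had an adjusted p under 0.05, 2 of the 49 genes did: SMURF2 with a log2 ratio of 0.52 and an adjusted p of 0.0300, and BAMBI with -0.83 and 0.0320.

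**Figure D1:**
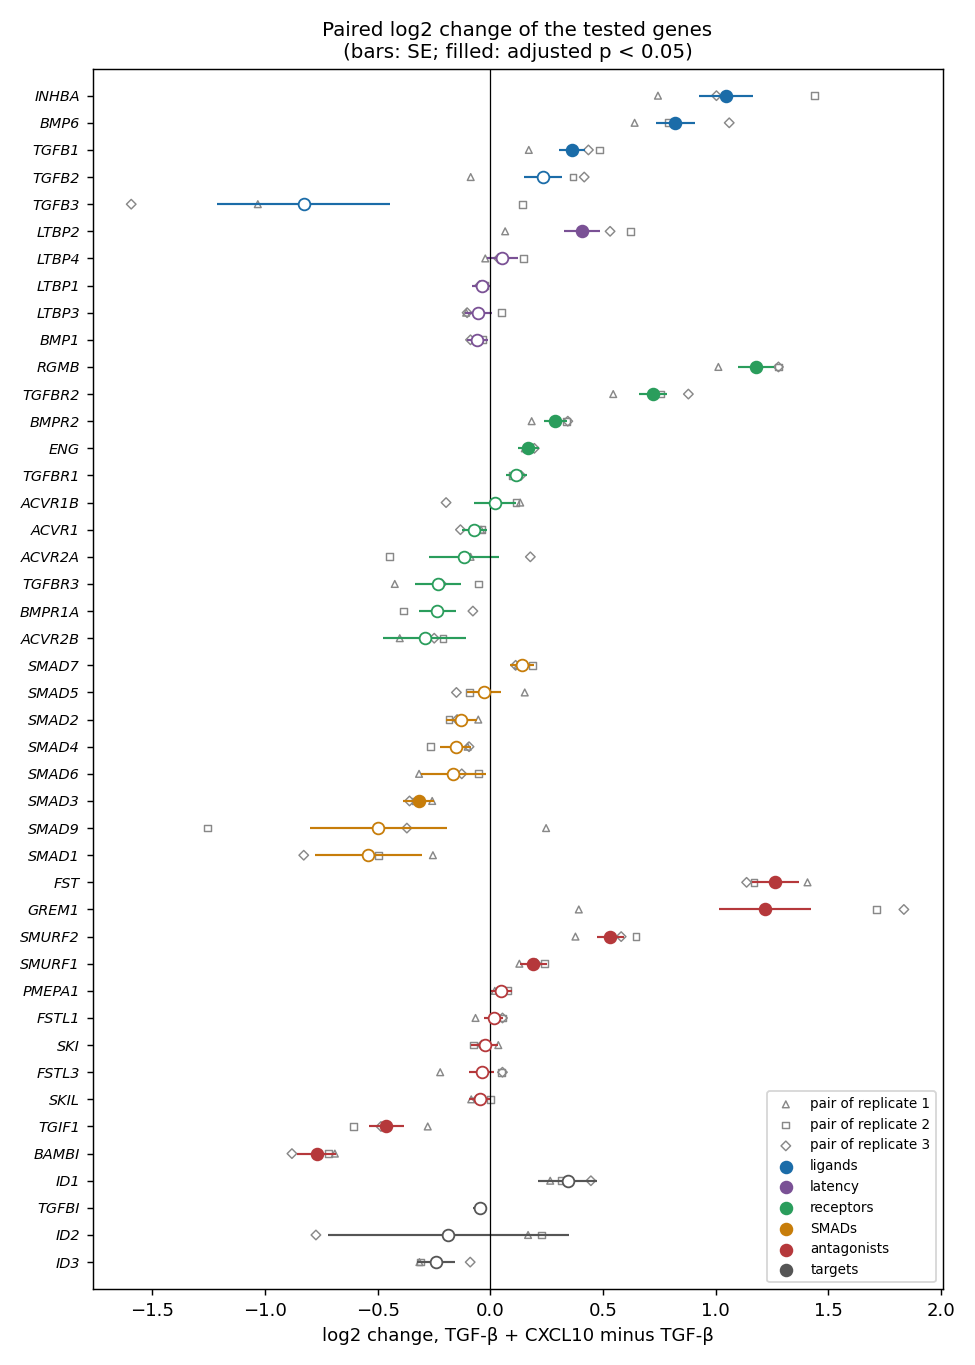
Log2 change with CXCL10 of each tested TGF-β superfamily gene in the paired edgeR fit (x axis, log2 units; large circles coloured by role, filled past an adjusted p of 0.05; bars, standard error derived from the F value of the fit, not from the spread of the pairs; small open markers, the difference in each of the 3 pairs). Of the 44 genes, 12 lie to the right and 3 to the left past the threshold, and the widest changes are those of FST, GREM1, RGMB and INHBA.

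Among the ligand genes, 5 of 8 were tested, 3 rose and none fell, with a median log2 change of 0.36. This count and those of the other roles below stand beside 9.71% of all genes called higher and 8.04% lower. TGFB1 (ENSG00000105329), the main TGF-β isoform, was at 444, 315 and 323 CPM in TGF-β replicates 1 to 3 and at 499.8, 439.9 and 436 CPM in CXCL10 replicates 1 to 3. The groups overlapped, since TGF-β replicate 1 lay above CXCL10 replicates 2 and 3. TGFB1 rose 1.29-fold (log2 0.36, SE 0.06, adjusted p 0.000888; unpaired adjusted p 0.184), and by 0.46 on the log2 scale without replicate 1. TGFB2, a second isoform, was at 86.3, 74.7 and 74.5 CPM and then 81.2, 96.4 and 99.5 CPM. Its CXCL10 replicate 1 lay below TGF-β replicate 1, while the other 2 pairs went the other way, and its log2 difference of 0.23 (SE 0.08) did not pass the test (adjusted p 0.0747). Without replicate 1 the difference was 0.39 and was called. TGFB3, the third isoform, was low, at 1.05 to 3.46 CPM, with a log2 difference of -0.83 (SE 0.38, adjusted p 0.162).

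INHBA (ENSG00000122641), the activin A subunit gene, was at 27.6, 12.2 and 15.2 CPM in the TGF-β group and 46.3, 33.3 and 30.6 CPM in the CXCL10 group. Every CXCL10 library lay above every TGF-β library, and within each group replicate 1 was highest. INHBA rose 2.07-fold (log2 1.05, SE 0.12, adjusted p 6.86e-05; unpaired 0.161), from a mean of 18.3 ± 8.17 to 36.8 ± 8.41 CPM (SD, n = 3). BMP6 (ENSG00000153162), a BMP that signals through SMAD1, SMAD5 and SMAD9, was at 49.8, 29.5 and 25.5 and then 77.7, 51.2 and 53.4 CPM. Its groups were also apart, by a narrow gap between TGF-β replicate 1 and CXCL10 replicate 2. BMP6 rose 1.77-fold (log2 0.82, SE 0.09, adjusted p 3.38e-05; unpaired 0.161). The other ligand genes were barely detected and were not tested. INHBB, the activin B subunit gene, had 1 count in TGF-β replicate 2 and 4 counts in CXCL10 replicate 2. BMP2 had 2 counts in TGF-β replicate 1 and 1 in replicate 3, and BMP4 had 2 counts in CXCL10 replicate 1.

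**Figure D2:**
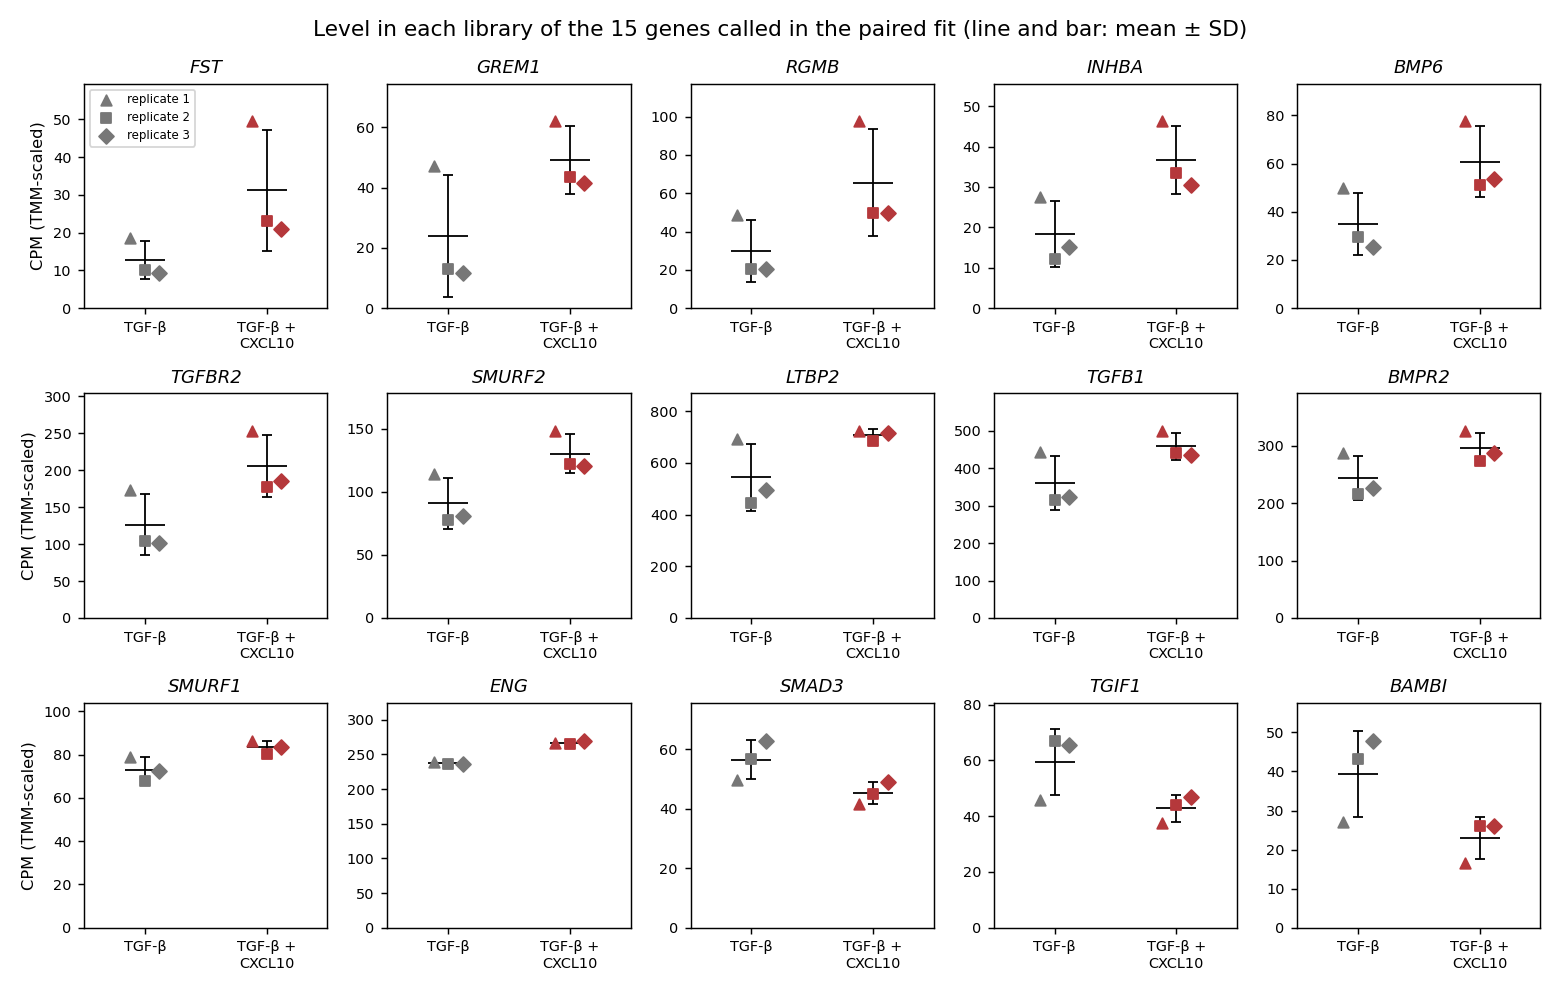
CPM in each library (y axis, linear from 0) of the 15 genes called in the paired test, with the 3 TGF-β libraries (grey) beside the 3 CXCL10 libraries (red), marker shape for the replicate number, and a line and bar for the mean ± SD. TGF-β replicate 1 (triangle) lies nearest to the CXCL10 libraries among the TGF-β libraries in each of the 15 panels.

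Per length, the ligand levels were unequal. TGFB1 had a median of 156 FPKM over the 6 libraries (117 to 178), well above TGFB2 at 14.5 (13.2 to 17.0), BMP6 at 13.2 (6.88 to 20.2) and INHBA at 5.85 (2.37 to 9.64). The ranges of TGFB2 and BMP6 overlapped, as did those of BMP6 and INHBA. TGFB1 made up 89.6% ± 1.11 of the summed FPKM of the 3 TGF-β isoform genes in the TGF-β group and 90.8% ± 1.48 in the CXCL10 group (SD, n = 3). The group ranges overlapped, and the share was higher with CXCL10 by 1.61, 1.02 and 0.92 percentage points in the 3 pairs, a difference that was not tested.

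Of the 5 genes for latency and processing, 1 rose. LTBP2 (ENSG00000119681), a matrix protein of the latent TGF-β binding protein family that does not bind latent TGF-β itself, was at 691, 445 and 496 CPM without and 724, 686 and 717 CPM with CXCL10. TGF-β replicate 1 lay within the range of the CXCL10 libraries and the other TGF-β libraries lay below it. LTBP2 rose 1.33-fold (log2 0.41, SE 0.08, adjusted p 0.0034; unpaired 0.184), with log2 differences of 0.07, 0.62 and 0.53 in the 3 pairs. LTBP1, which tethers latent TGF-β to the matrix, was at 763 to 796 and 741 to 770.4 CPM (log2 -0.04, adjusted p 0.600). LTBP3, LTBP4 and BMP1, a metalloproteinase that cleaves procollagens and latent complexes, had log2 differences of -0.05, 0.05 and -0.06 and adjusted p values of 0.436 to 0.644. LTBP1 made up 58.5% ± 4.24 of the summed FPKM of the 4 LTBP genes without CXCL10 and 52.6% ± 0.625 with it (SD, n = 3). The share differed by -1.44, -9.01 and -7.11 percentage points in pairs 1 to 3, and this was not tested. Per length, BMP1 (153 to 182 FPKM) and LTBP1 (148 to 165) overlapped, and LTBP2 (56.7 to 90.8) was lower.

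Of the 11 receptor and co-receptor genes, 4 rose and none fell, with a median log2 change of 0.02. TGFBR2 (ENSG00000163513), the type II receptor that binds TGF-β, was at 174, 105 and 101 CPM in the TGF-β group and 253, 177 and 186 CPM in the CXCL10 group. The groups did not overlap, although TGF-β replicate 1 came close to CXCL10 replicate 2. TGFBR2 rose 1.65-fold (log2 0.72, SE 0.06, adjusted p 9.87e-06; unpaired 0.161), from 126 ± 40.9 to 205 ± 41.8 CPM (SD, n = 3), and its pairs differed by 0.55, 0.76 and 0.88. TGFBR1, its type I partner, was at 217, 209 and 209 CPM without and 233, 224 and 229.9 with CXCL10. Its groups were apart but its log2 difference was small, at 0.11 (SE 0.05, adjusted p 0.116). The FPKM ratio of TGFBR1 to TGFBR2 was 1.33, 1.998 and 2.01 in the TGF-β libraries and 0.946, 1.17 and 1.39 in the CXCL10 libraries, so that the groups overlapped only through TGF-β replicate 1.

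BMPR2 (ENSG00000204217), the type II receptor for BMPs, was at 287, 216 and 226 CPM without and 326, 273 and 287 CPM with CXCL10. TGF-β replicate 1 lay among the CXCL10 libraries. BMPR2 rose 1.22-fold (log2 0.29, SE 0.05, adjusted p 0.00159; unpaired 0.204). RGMB (ENSG00000174136), a membrane-anchored BMP co-receptor, was at 48.4, 20.3 and 20.4 CPM without and 97.7, 49.5 and 49.6 CPM with CXCL10. The groups were separate, and the 2 lowest libraries of the CXCL10 group lay just above TGF-β replicate 1. RGMB rose 2.26-fold (log2 1.18, SE 0.08, adjusted p 2.89e-06; unpaired 0.161), with pair differences of 1.01, 1.28 and 1.28. ENG (ENSG00000106991), the TGF-β and BMP co-receptor endoglin, was at 239, 237 and 236 and then 266, 264 and 269.6 CPM. Replicate 1 did not stand apart for ENG in the TGF-β group, and the groups did not overlap. ENG rose 1.12-fold (log2 0.17, SE 0.05, adjusted p 0.0238; unpaired 0.161), and it passed the test in neither the DESeq2 nor the FPKM paired fit.

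The other receptor genes did not pass the test. The BMP type I receptor gene BMPR1A was at 44.2, 51.8 and 46.7 and then 37.5, 39.6 and 44.2 CPM (log2 -0.23, SE 0.08, adjusted p 0.0597). The co-receptor gene TGFBR3, encoding betaglycan, was at 23.1 to 26.2 and 18.5 to 22.5 CPM, with a log2 difference of -0.23 (SE 0.10, adjusted p 0.145) and groups apart. The type I receptor gene ACVR1 and the activin type II receptor gene ACVR2B were also lower in each CXCL10 library than in any TGF-β library, with log2 differences of -0.07 and -0.29 (adjusted p 0.414 and 0.310). The activin receptor genes ACVR1B and ACVR2A differed by 0.02 and -0.12. Per length, ENG was highest (80.9 to 90.1 FPKM), followed by median by TGFBR1 (44.9 to 55.9), TGFBR2 (22.5 to 54.7), ACVR1 (31.0 to 36.1) and BMPR2 (18.5 to 26.6). The wide range of TGFBR2 overlapped those of TGFBR1, ACVR1 and BMPR2, which did not overlap each other.

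**Figure D3:**
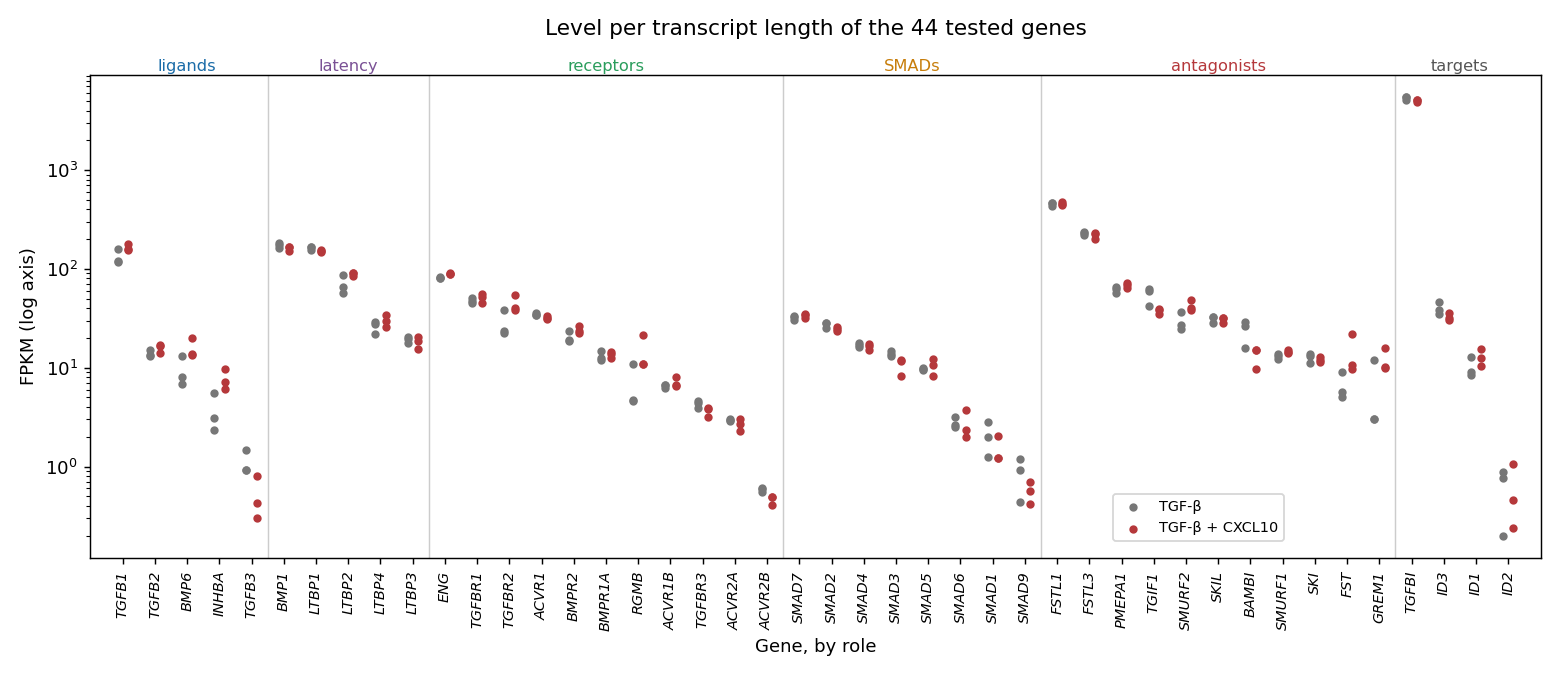
FPKM per library (y axis, logarithmic) of the 44 tested genes (x axis), ordered by level within each role, with grey points for the 3 TGF-β and red points for the 3 CXCL10 libraries. The target TGFBI lies far above the other genes, and TGFB1 lies far above the other ligand genes.

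Of the 8 SMAD genes none rose and 1 fell, with a median log2 change of -0.16, while 8.04% of all genes were called lower. The estimate was negative for 7 of the 8, and for 6137 of all 11970 genes tested. Of the 7, SMAD1 and SMAD9 were low, at 2.77 to 5.85 and 2.37 to 5.85 CPM, and SMAD5 changed sign under some settings. SMAD3 (ENSG00000166949), which carries TGF-β and activin signals and binds DNA, was at 49.7, 56.9 and 62.9 CPM without and 41.6, 45.1 and 49.01 CPM with CXCL10. The groups did not overlap, by the small gap between TGF-β replicate 1 and CXCL10 replicate 3. SMAD3 fell to 0.802 of its level (log2 -0.32, SE 0.07, adjusted p 0.00647; unpaired 0.162), from 56.5 ± 6.60 to 45.2 ± 3.73 CPM (SD, n = 3). Without replicate 3 of both groups its adjusted p was 0.0850. SMAD2, its partner in TGF-β signalling, was at 52.5, 56.3 and 58.5 and then 50.6, 49.6 and 52.8 CPM (log2 -0.13, adjusted p 0.228). SMAD1, SMAD5 and SMAD9, which carry BMP signals, had log2 differences of -0.54 (SE 0.24), -0.03 (SE 0.08) and -0.50 (SE 0.31), and none passed the test. SMAD9 was called lower without replicate 1, at -0.84. SMAD4, the common partner, was lower in each CXCL10 library than in any TGF-β library, at a log2 difference of -0.15 (adjusted p 0.139).

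SMAD7, the inhibitory SMAD that TGF-β itself induces, was at 98.0, 94.0 and 101 CPM without and 107, 107 and 109 CPM with CXCL10. All CXCL10 libraries lay above the TGF-β libraries, but the log2 difference of 0.14 (SE 0.05) did not pass the test (adjusted p 0.0888; unpaired 0.244). SMAD6, which mainly restrains BMP signals, differed by -0.17 (adjusted p 0.482). Per length, SMAD7 was the highest of the SMAD genes at 30.2 to 34.6 FPKM.

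Of the 6 intracellular antagonists, 2 rose and 1 fell. SMURF2 (ENSG00000108854), a ubiquitin ligase that targets SMADs and, with SMAD7, the receptors, was at 114, 78.0 and 80.5 CPM without and 148, 122 and 120.4 CPM with CXCL10. The groups did not overlap, and replicate 1 was highest in both. SMURF2 rose 1.45-fold (log2 0.53, SE 0.06, adjusted p 6.8e-05; unpaired 0.161), from 90.9 ± 20.2 to 130.3 ± 15.6 CPM (SD, n = 3). Its relative SMURF1 was at 79.0, 67.8 and 72.4 and then 86.4, 80.1 and 83.3 CPM, a rise of 1.14-fold (log2 0.19, SE 0.06, adjusted p 0.0411) that was lost in each of the paired DESeq2 and FPKM fits. TGIF1 (ENSG00000177426), a homeobox corepressor of SMAD2 and SMAD3, was at 45.6, 67.1 and 65.5 and then 37.6, 43.9 and 46.8 CPM. TGF-β replicate 1 was the lowest TGF-β library and lay below CXCL10 replicate 3. TGIF1 fell to 0.726 of its level (log2 -0.46, SE 0.08, adjusted p 0.00119; unpaired 0.161). The SMAD corepressor genes SKI and SKIL and PMEPA1, which binds SMAD2 and SMAD3, had log2 differences of -0.03, -0.05 and 0.05 (adjusted p 0.563 to 0.822).

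Of the 6 secreted and decoy antagonists, 5 were tested, 2 rose and 1 fell. GREM1 (ENSG00000166923), which binds BMP2, BMP4 and BMP7, was at 47.3, 13.1 and 11.6 CPM without and 62.1, 43.5 and 41.7 CPM with CXCL10. TGF-β replicate 1 lay far from the other TGF-β libraries, by 1.93 on the log2 scale, and above CXCL10 replicates 2 and 3, so the groups overlapped. GREM1 rose 2.33-fold (log2 1.22, SE 0.20, adjusted p 0.00114; unpaired 0.231), and by 1.78 on the log2 scale without replicate 1. Its pair differences were 0.39, 1.72 and 1.84, a spread that the SE does not measure. The paired DESeq2 and FPKM fits gave adjusted p values of 0.0359 and 0.0410. FST (ENSG00000134363), encoding follistatin, which traps activins, was at 18.6, 10.2 and 9.39 and then 49.6, 23.2 and 20.8 CPM. Its groups did not overlap and replicate 1 was highest in both. FST rose 2.40-fold (log2 1.26, SE 0.10, adjusted p 9.85e-06; unpaired 0.161), and, unlike the other called genes, its change was largest in pair 1, at 1.41 against 1.17 and 1.14. INHBA and FST, a ligand subunit and its trap, thus rose together.

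The follistatin relatives did not pass the test. FSTL1 was at 1457 to 1539 and 1470.5 to 1519 CPM (log2 0.01, adjusted p 0.871), and FSTL3, which also binds activins, at 528 to 569 and 487 to 557 CPM (log2 -0.04, adjusted p 0.692). Per length, FSTL3 was 36.5 ± 9.46 times FST without CXCL10 and 17.9 ± 7.64 times with it (SD, n = 3). BAMBI (ENSG00000095739), a kinase-lacking decoy receptor that blocks TGF-β, activin and BMP receptors, was at 27.0, 43.1 and 47.9 CPM without and 16.7, 26.2 and 25.9 with CXCL10. The groups were apart, by a narrow gap between TGF-β replicate 1 and CXCL10 replicate 2. BAMBI fell to 0.586 of its level (log2 -0.77, SE 0.09, adjusted p 6.39e-05; unpaired 0.161), from 39.3 ± 10.9 to 22.9 ± 5.42 CPM (SD, n = 3), with pair differences of -0.69, -0.72 and -0.88. NOG, encoding the BMP trap noggin, had 0 counts in all 6 libraries.

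None of the 4 tested targets passed the test. TGFBI (ENSG00000120708), a matrix protein strongly induced by TGF-β, held 1.32 to 1.49% of all counts, while the 49 genes together held 2.02 to 2.13%. It was at 13873, 14421 and 14614 CPM without and 13431, 14010.2 and 14154 CPM with CXCL10. The groups overlapped and the log2 difference was -0.04 (SE 0.03, adjusted p 0.379). The ID genes are BMP targets whose products block basic helix-loop-helix factors. ID1 was at 13.0, 8.28 and 9.09 and then 15.6, 10.4 and 12.4 CPM (log2 0.34, SE 0.13, adjusted p 0.0896), and ID3 at 36.8, 42.2 and 32.5 and then 29.5, 34.1 and 30.5 CPM (log2 -0.24, SE 0.08, adjusted p 0.0654). ID2 was at 0.249 to 1.13 CPM (log2 -0.19, SE 0.53, adjusted p 0.861), and ID4 had a single count, in TGF-β replicate 1.

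**Figure D4:**
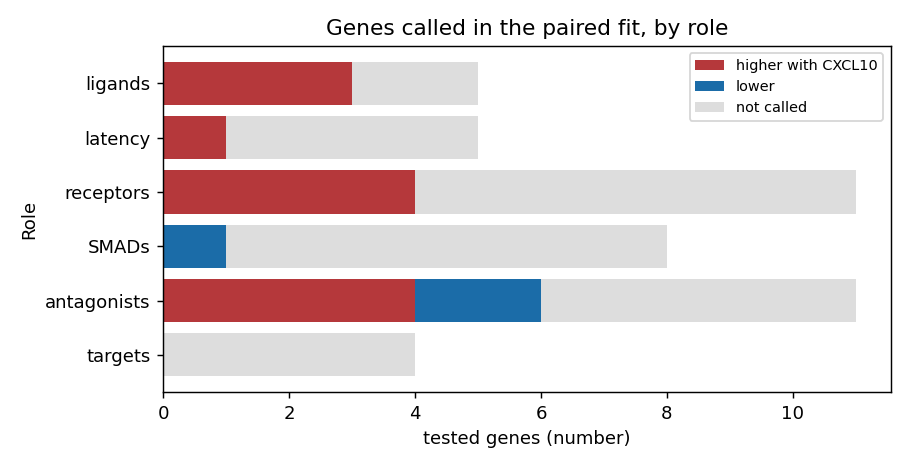
Number of tested genes (x axis) in each of the 6 role groups (y axis), split into those called higher with CXCL10 (red), called lower (blue) and not called (grey) in the paired edgeR test. Ligands, latency and receptors hold 3, 1 and 4 higher calls and no lower call, and SMADs hold 1 lower call. Antagonists hold 4 higher and 2 lower, and targets hold none. Over all genes tested, 9.71% were called higher and 8.04% lower.

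Other genes of the pathway were taken from lists written by function, with earlier results of these data known, so their counts are a description. Beside them stand 9.71% of all genes called higher and 8.04% lower in the paired test, with a median log2 change of -0.01. Of 25 other ligands 6 were tested and 1 fell, the activin E subunit gene INHBE, from 46.5, 63.1 and 66.4 to 24.2, 38.2 and 38.2 CPM (log2 -0.82, SE 0.08). ACVRL1, encoding the type I receptor ALK1, was the only one of 8 other receptors tested, and rose (log2 0.36, SE 0.10, adjusted p 0.0261), a call lost in the paired DESeq2 (adjusted p 0.110) and FPKM (0.2999) fits. Of 14 tested genes for the activation of latent TGF-β, 7 rose and 1 fell, with a median log2 change of 0.23, and of these 8 calls the paired DESeq2 fit shared 8 and the FPKM fit 5. Those with the lowest p were PLAU, THBS1, EMILIN1 and PLAT, at 0.87, 0.70, 0.68 and 0.69. Thrombospondin 1, encoded by THBS1, can release active TGF-β, and plasminogen activators such as PLAU and PLAT make plasmin, which can do so too. EMILIN1, in contrast, encodes a matrix protein known to hold back the processing of the TGF-β precursor. Among 11 other secreted antagonists VASN rose (0.31), DCN (-0.25) and HTRA1 (-0.17) fell, and BMPER differed by 0.29 (adjusted p 0.102). The HTRA1 call was lost in the paired DESeq2 fit (0.167) and the calls of HTRA1 (0.0580) and DCN (0.0731) on FPKM. Of 24 other intracellular regulators 3 rose and 3 fell, among them the SMAD phosphatase gene PPM1A (-0.33), the coactivator gene CREBBP (-0.21), FKBP1A, whose product binds type I receptors (0.18), and the repressor gene ZEB1 (0.22). None of these 6 calls was shared by the paired DESeq2 or FPKM fit.

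Of 25 tested TGF-β target genes outside the 49, 9 rose and 3 fell, with a median log2 change of 0.08, and of these 12 calls the paired DESeq2 fit shared 10 and the FPKM fit 7. IL11, ADAM19 and CCN2 rose by 1.32, 0.92 and 0.82 on the log2 scale. Their TGF-β replicate 1 was also the TGF-β library nearest to the CXCL10 group: IL11 was at 56.6, 20.6 and 21.7 CPM without and 119, 61.0 and 57.4 CPM with CXCL10. ACTA2, the smooth muscle actin gene of myofibroblasts, fell by 0.43. Of 8 tested BMP targets none passed the test, with a median of -0.19. The lowest adjusted p there was 0.0647, for GATA2 (log2 0.30), and KLF2, RUNX2 and ATOH8 differed by -0.41, -0.18 and -0.32. The called TGF-β targets thus went in both directions, with 9 of the 25 higher and 3 lower, where the paired test called 9.71% and 8.04% of all genes. In 11 of the 25 the CXCL10 libraries all lay above the TGF-β libraries, and in 0 all below, against 11.1% and 11.2% of all genes.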

How the data were processed

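Per the labels' protocols, SMARTer mRNA libraries were prepared from total RNA isolated with a Qiagen column kit. Builds GRCm38 and mm10 appear in the submitters' processing notes. The sources used here name no aligner, counter, strand setting or test behind the authors' p-value. Without a stated strand setting, reads of a gene and an overlapping antisense gene cannot be told apart. For each gene the deposited table lists counts and FPKM in every library, the authors' FPKM means, the log2 ratio of these, and a p-value with its adjustment, per the file headers. Counts per library were 12838106 to 15587409. Samples were grouped by the labelled treatment.

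The quasi-likelihood test of edgeR 4.0.16 (R 4.3.3) was run on the counts after TMM scaling and filterByExpr (at least 10 counts, total at least 15), with a Benjamini-Hochberg threshold of 0.05, without a block as the principal test and with the replicate number as a block. DESeq2 1.42.0 and limma 3.58.1 (voom on counts, trend on log2(FPKM + 1)) were alternatives, with other scalings, filters and left-out replicates. CPM values use TMM-scaled library sizes, and log2 CPM a prior count of 2. The scripts were tested on simulated data in which libraries of the same number shared a deviation. That test therefore does not bear on whether the real libraries are paired. Libraries with the same number deviated together from their groups (correlations 0.330, 0.121 and 0.163 over 11970 genes, each over 0.1), so the replicate block was taken as pairing. Replicate 1 against the other numbers gave -0.165 to -0.223. Replicates 2 and 3 against each other gave 0.0825 and 0.0803, close to their matched values. For replicates 2 and 3 the check therefore does not settle which library pairs with which. The pairing comes from the data, rests largely on replicate 1, and was checked on the counts it was then used for. Fold changes are those of the paired fit. Each standard error (SE) is the absolute log2 change divided by the square root of the F value of the paired test. It is not the standard error of the 3 pair differences.

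The genes and lists were chosen with earlier results of these data known. Library values are given for the genes that passed 0.05 in either fit with a log2 change of at least 0.3, and for 12 genes set by name. Of each other list up to 4 genes with the lowest p are named. No library was left out of the principal tests, and no sequence was used here.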

Additional observations from a re-analysis of the deposited data

How the results depend on the processing

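The unpaired edgeR test called 0 genes (2449 with an unadjusted p under 0.05) and kept 0 with other scalings, filters, limma-voom and FPKM values; unpaired DESeq2 called 172 higher and 163 lower, with 1 and 2 among the TGF-β superfamily genes. Leaving out single libraries gave 0 to 1302 genes higher and 0 to 1046 lower, with 0 to 13 and 0 to 3 superfamily genes, and the upper ends come from leaving out TGF-β replicate 1. With the replicate block, edgeR called 1162 and 962 genes (12 and 3 superfamily genes), DESeq2 size factors 1216 and 968 (12 and 3), library totals 877 and 1359 (10 and 6), no filter 1391 and 1045 (13 and 3), and a filter at 5 CPM 1174 and 1031 (12 and 5). Also with the block, DESeq2 called 684 and 454 (9 and 3), limma-voom 1149 and 959 (12 and 3), and limma-trend 337 and 352 on log2(FPKM + 1) (8 and 2) and 332 and 347 on log2(FPKM + 0.1) (8 and 2). The block without replicate 1 gave 1533 and 1313 (13 and 4), without replicate 2 680 and 561 (10 and 4), and without replicate 3 539 and 365 (9 and 2). Leaving out replicate 2 lost ENG and SMURF1 and added TGFB3 (-1.39), and leaving out replicate 3 lost LTBP2, ENG, SMURF1 and SMAD3. The cause of these shifts was not tested.

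For 9 genes with small differences the sign changed under some settings, and none was called in any of these (smallest adjusted p 0.355). Over single left-out libraries LTBP3 ranged from -0.11 to 0.037, ACVR1B from -0.053 to 0.098, ACVR2A from -0.28 to 0.0062, SMAD5 from -0.085 to 0.015, SKI from -0.090 to 0.039, FSTL1 from -0.00036 to 0.041, FSTL3 from -0.073 to 0.021 and ID2 from -0.74 to 0.19. With library totals ACVR1B was -0.021 without and -0.024 with the block, and FSTL1 -0.029 in both. On FPKM values, with and without the block, BMPR1A was 0.041 (pseudocount 1) and 0.044 (0.1), and SMAD5 0.068 and 0.073. With the block, leaving out replicate 1 gave -0.038 for ACVR1B and 0.054 for FSTL3. Leaving out replicate 2 gave -0.028 for ACVR1B, 0.048 for ACVR2A, 0.0023 for SMAD5 and -0.0062 for FSTL1, and leaving out replicate 3 gave 0.038 for SMAD5 and 0.24 for ID2. The standard errors of the low genes TGFB3 (0.38) and ID2 (0.53), at 1.05 to 3.46 and 0.249 to 1.13 CPM, were the widest of the 44 tested genes.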

Other observations

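The length implied by a gene's count over its FPKM, which the authors' values set for each library, was not constant for all of the superfamily genes. It was longer in each CXCL10 library than in any TGF-β library for ENG, FST and TGFBI (3 of 44, 6.82%, against 593 of 11914 genes, 4.98%), and shorter for 6 (13.6% against 671 genes, 5.63%), namely ACVR1B, BMPR1A, SMAD4, SKIL, PMEPA1 and ID1. The difference was very small for ENG (means of 2947 bases without and 2949 with CXCL10) and TGFBI (2702 and 2705). For BMPR1A it was 3647, 3580.4 and 3822 bases without and 2696, 3144 and 3018 bases with CXCL10, and the log2 difference was -0.23 on counts and 0.04 on FPKM. For FST it was 2036, 1841 and 1877 and then 2232, 2160.2 and 2102 bases, with log2 changes of 1.26 on counts and 0.93 on FPKM. For BAMBI it was 1691 bases in all 6 libraries. FPKM group means put 22 of the 44 genes higher with CXCL10 and CPM means 20, with the same order in 42.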
